A study of Mus musculus with 6 samples.

Results

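The genes described here belong to adrenergic and cyclic AMP (cAMP) signalling in the mouse heart: the receptors Adrb1, Adra1a and Adra1b, the adenylyl cyclases Adcy5 and Adcy6, the receptor kinase Grk5, the phosphodiesterases Pde3a and Pde4d, and the kinase subunit Prkaca. They were chosen by name, and each gene was read from its brightest probe that carried a single gene symbol. Of these 9 genes, 7 had such a probe, among 22180 genes tested on each array. Adrb1 and Adra1a were not analysed here, so the receptor side of the members rests on Adra1b.

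Gene expression was measured on 6 Affymetrix arrays, 3 per group, in hearts of mice of a mixed C57BL/6 x 129S6 strain. Control hearts had the genotype Nkx2.5-Cre, a Cre recombinase active in cardiac progenitors and their descendants. Transgenic hearts had the genotype Nkx2.5-Cre; R26R-miR302-367, in which the same Cre also switches on the miR-302/367 microRNA cluster, placed at the Rosa26 locus. Both groups thus carried Cre, and cells without a history of Nkx2.5-Cre activity would not switch on the cluster. The labels give the age as day 14 after birth in the source name and harvest protocol and as E14 in the age field. Nothing in the labels ties the samples to separate animals, so a p-value here covers the scatter among these samples, part of which may be technical.

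Adrenaline and noradrenaline act on heart muscle through beta receptors, which use the stimulatory G protein to activate adenylyl cyclase, and through alpha1 receptors, which use the Gq family to activate phospholipase C. Cyclic AMP releases the catalytic subunits of protein kinase A, which phosphorylate calcium-handling and sarcomere proteins and so raise the rate and force of the beat. Phosphodiesterases break cAMP down, receptor kinases and arrestins silence occupied receptors, and inhibitory G proteins coupled to muscarinic receptors oppose the cascade.

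The transgene is shown by the mature sequences of its microRNAs, from RefSeq on GRCm38.p6, because they define the difference between the groups. Capitals mark bases 2 to 8, the seed that pairs with target messenger RNAs.
miR-302b-3p: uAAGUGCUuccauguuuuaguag
miR-302c-3p: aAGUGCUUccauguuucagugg
miR-302d-3p: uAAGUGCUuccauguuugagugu
miR-367-3p: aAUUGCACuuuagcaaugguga
The seeds of miR-302b and miR-302d are identical, that of miR-302c is shifted by a base because its listed sequence starts later, and miR-367 has a different one. The probes of Mir302a, Mir302b, Mir302c, Mir302d and Mir367 were higher in transgenic hearts by 2.99 to 6.61 on the log2 scale. Their control means were 2.52 to 3.76, low on a scale whose lowest value was 2.06, so the floor of the scale limits these sizes. Whether these probes read the mature forms was not tested. Nkx2-5, which drives the Cre, had a log2 difference of 0.08 (limma adjusted p = 0.616).

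All values are the authors' log2 expression values, and differences are transgenic minus control on that scale. Array medians lay between 5.45 and 5.54, and arrays of a group correlated at 0.990 to 0.995 across genes, against 0.981 to 0.987 between groups. The 12 heart muscle markers summed to a log2 level of 16.17 to 16.19 in control and 16.15 to 16.20 in transgenic hearts, and 0 of them lay in the dimmest 33.3% of genes. Their mean log2 level was 11.85 to 11.94 in control and 12.09 to 12.19 in transgenic hearts, without overlap, and by the rule that follows 2 of the 12 were called higher and 0 lower. The median difference of the 12 was 0.005, with 6 negative and 6 positive, and the largest was 1.84, for Myh7. The higher mean was thus not shared by the list as a whole. A gene is called changed at a limma p under 0.05 after Benjamini-Hochberg adjustment over all 22180 genes. By that rule 11.1% of all genes were called, 5.35% higher and 5.76% lower in transgenic hearts.

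None of the 7 measured members was called, beside a background of 11.1%. Their adjusted p-values ran from 0.121 for Adra1b to 0.848 for Pde4d. At an unadjusted p under 0.05 the set held 5 members, beside 25.4% of all genes. Of the 7 members, 6 had lower means in transgenic hearts and Adcy6 had a higher one, beside 56.7% of all genes with a negative difference. The median member difference was -0.19, beside -0.03 for all genes tested. For 5 members the 3 transgenic values lay wholly outside the control values, 4 below and 1 above. Among all genes the share was 30.9% (16.7% lower and 14.2% higher). Control means of the 7 members lay at percentiles 58.8 to 98.5 of all genes. The shares of all genes given here were not matched for brightness. Under other settings 1 member was called with renewed quantile normalization (beside 12.7% of all genes), with array weights (14.1%) or without control 3 (10.1%), and 2 with an intensity trend and robust variance (14.3%), so that a count of 1 of 7 is near the background.

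**Figure D1:**
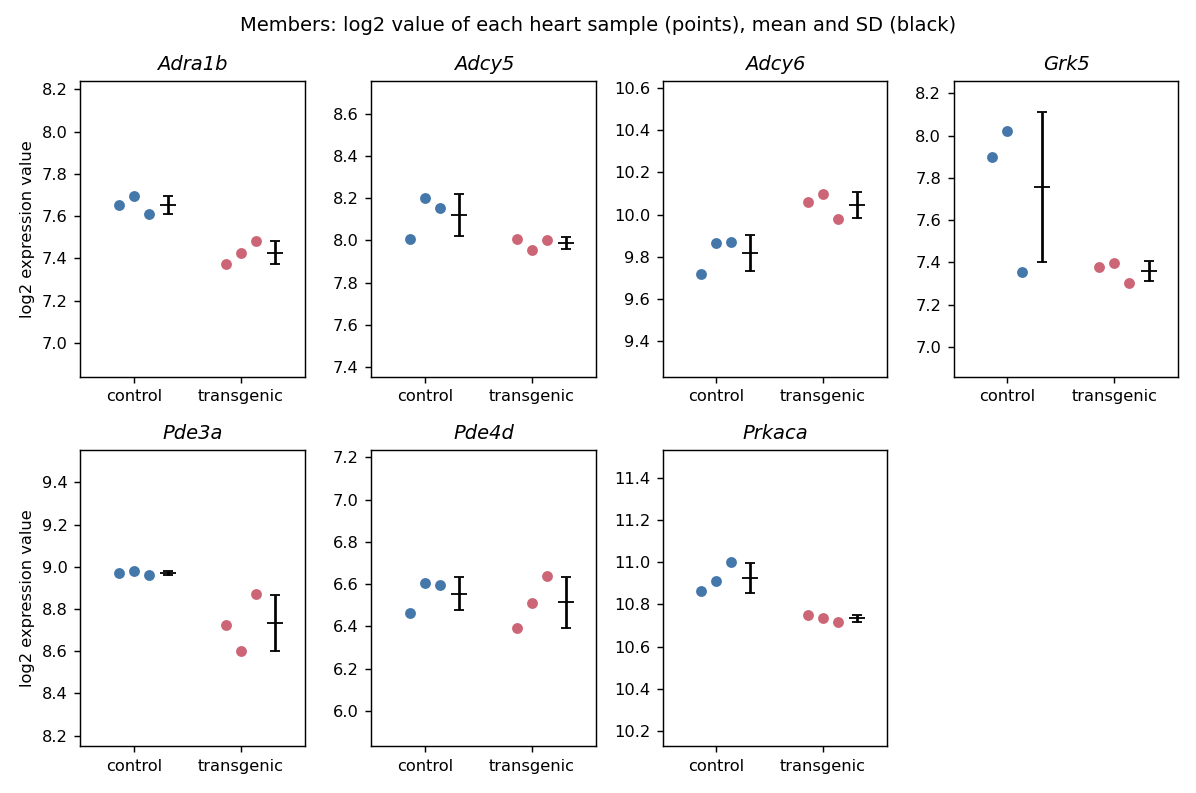
Deposited log2 value of each of the 7 measured members in each heart sample (points; 3 control, 3 transgenic), with the group mean and SD as a black bar; every vertical axis spans the same log2 width. The groups of Adra1b, Adcy5, Adcy6, Pde3a and Prkaca do not overlap, while control 3 of Grk5 lies among the transgenic hearts at 7.35.

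Adra1b encodes the alpha1B receptor, which couples to Gq. It was at 7.65, 7.69 and 7.61 in control hearts and at 7.37, 7.43 and 7.48 in transgenic hearts. Every transgenic heart was below every control heart, and the gap between the groups exceeded the spread inside each. The mean went from 7.65 ± 0.041 to 7.43 ± 0.055 (SD, n = 3 each), a difference of -0.23 with an SE of 0.082 (95% interval -0.41 to -0.04). The adjusted p of 0.121 missed the threshold. With quantile normalization repeated it passed, at a difference of -0.29 (limma adjusted p = 0.048).

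Adcy5 and Adcy6 encode the adenylyl cyclases best known from heart muscle, both inhibited by calcium and by inhibitory G proteins. Adcy5 was at 8.01, 8.20 and 8.15 in control hearts and at 8.01, 7.96 and 8.003 in transgenic hearts. The highest transgenic heart fell just short of the lowest control heart, control 1. The difference was -0.13 with an SE of 0.088 (95% interval -0.33 to 0.07, adjusted p = 0.403). Adcy6 was at 9.72, 9.87 and 9.87 in control hearts and at 10.06, 10.10 and 9.98 in transgenic hearts. All transgenic hearts lay above all control hearts, a direction opposite to that of Adcy5. The Adcy6 difference was 0.23 with an SE of 0.088 (95% interval 0.03 to 0.42, adjusted p = 0.144), and an intensity trend with robust variance took it past the threshold (limma adjusted p = 0.0488).

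The probes of both cyclases can be set against each other within an array, which asks whether they shifted by different amounts. Adcy5 minus Adcy6 was -1.71, -1.67 and -1.72 in control hearts and -2.05, -2.14 and -1.98 in transgenic hearts. The group means were -1.70 ± 0.029 and -2.06 ± 0.083 (SD, n = 3 each), a shift of -0.36 in which every transgenic heart was below every control heart. In control hearts the SD of the within-array difference was smaller than that of either gene alone (0.10 for Adcy5 and 0.085 for Adcy6), and in transgenic hearts it was larger (0.029 for Adcy5 and 0.060 for Adcy6). The exact two-sided permutation test gave p = 0.10, the smallest that 3 against 3 samples allow (adjusted p = 0.10 over 2 such contrasts).

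Grk5 encodes a kinase that phosphorylates agonist-occupied receptors and so starts their desensitisation. It was at 7.90, 8.02 and 7.35 in control hearts and at 7.38, 7.40 and 7.30 in transgenic hearts. Control 3 sat inside the transgenic range, while the other controls were well above it. Grk5 had the widest control spread of the members, with a control SD of 0.36 against 0.049 in transgenic hearts; the median gene had a control SD of 0.129. The difference was -0.40 with an SE of 0.16 (95% interval -0.76 to -0.04, adjusted p = 0.157). Without control 3 it was -0.60 (limma adjusted p = 0.00754). With array weights and all arrays kept it was -0.49 (limma adjusted p = 0.0332). Whether Grk5 was called thus changed with 1 control sample left out, and with the weighting of the arrays.

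Pde3a encodes a phosphodiesterase that cGMP inhibits and that cardiotonic drugs of the milrinone type target. It was at 8.97, 8.98 and 8.96 in control hearts and at 8.73, 8.60 and 8.87 in transgenic hearts. The controls were nearly equal and all 3 transgenic hearts were lower, spread over a wider range. The difference was -0.24 with an SE of 0.094 (95% interval -0.45 to -0.02, adjusted p = 0.153). Pde4d encodes a phosphodiesterase specific for cAMP that associates with beta receptors and the calcium release channel. It was at 6.46, 6.60 and 6.59 in control hearts and at 6.39, 6.51 and 6.64 in transgenic hearts, with the groups overlapping throughout. Its difference was -0.04 (95% interval -0.26 to 0.18, adjusted p = 0.848), and without transgenic 1 the sign turned, at 0.02. Pde3a minus Pde4d within an array averaged 2.42 ± 0.078 for controls and 2.22 ± 0.120 for transgenic samples (SD, n = 3 each). The shift of -0.20 had an exact two-sided permutation p = 0.10, again the smallest possible.

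Prkaca encodes the main catalytic subunit of protein kinase A. It was at 10.86, 10.91 and 11.002 in control hearts and at 10.75, 10.73 and 10.72 in transgenic hearts. All transgenic hearts lay below all controls and were close to each other. The difference was -0.19 with an SE of 0.083 (95% interval -0.38 to -0.0039, adjusted p = 0.188). With an intensity trend and robust variance it passed (limma adjusted p = 0.0451). A second, dimmer Prkaca probe had a difference of 0.06 when every probe was tested (limma adjusted p = 0.775), and the mean of both probes had -0.066 (limma adjusted p = 0.677).

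**Figure D2:**
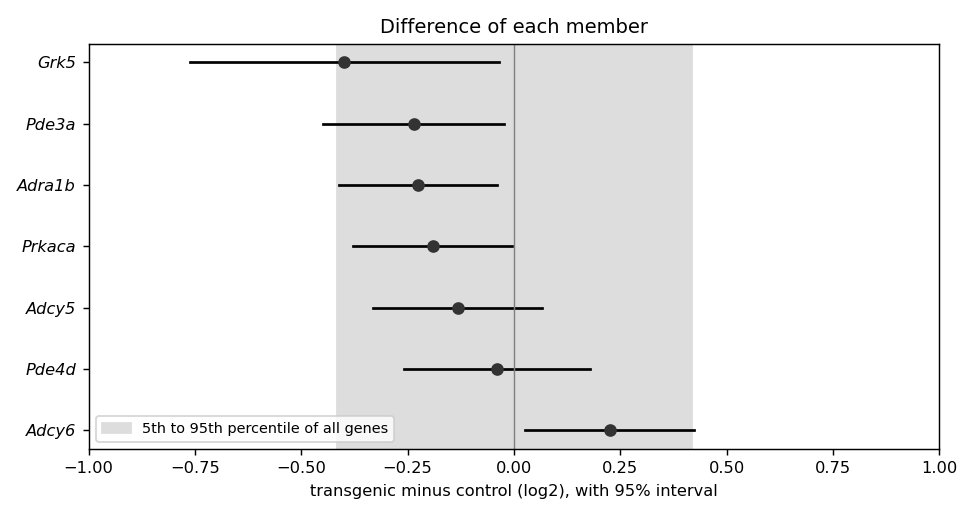
Difference of each measured member, transgenic minus control on the log2 scale (points), with its limma 95% interval (lines); the grey band runs from the 5th to the 95th percentile of all genes, -0.42 to 0.42. Every member's difference lies inside the band, and the intervals of Adcy5 and Pde4d include 0.

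The other genes of the cascade came from 14 lists of 197 genes in all, of which 26 were not analysed here. Besides the members, 164 genes were measured, and 14 rose and 18 fell. These 32 genes are 19.5% of the lists, beside 11.1% of all genes, and the median difference was -0.03, as for all genes. With the dimmest 33.3% of all genes left out, 146 of the 164 stayed. The share called was then 28.1%, beside 20.4% of the 14787 genes kept. The lists thus held fewer dim genes in proportion than the arrays, and the 11.1% was not matched for brightness. The count of called list genes was 20 without transgenic 2, and 3 when a change of at least 1.5-fold was tested for. Of the 32 calls, 17 held under every alternative other than that minimum fold. Calls lost without 1 array are given below with their adjusted p. Calls that named genes gained under other settings are given at the end.

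**Figure D3:**
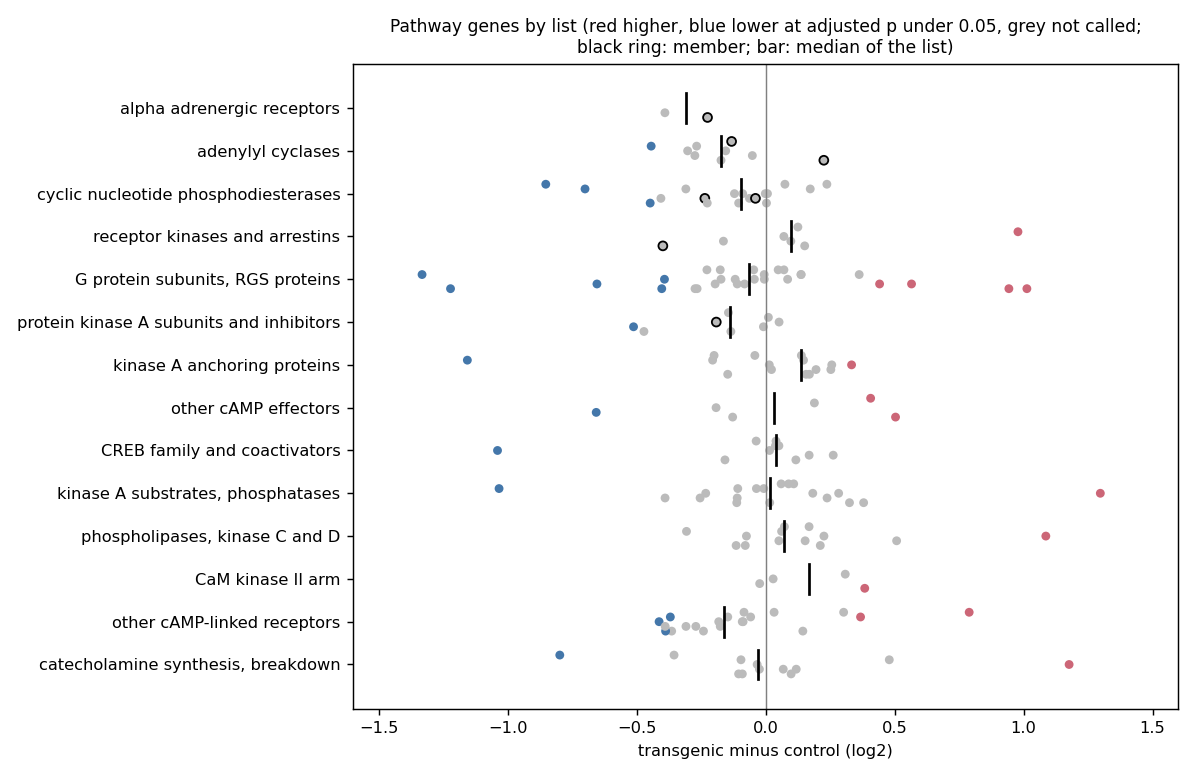
Difference of each measured gene in 14 lists of adrenergic and cAMP signalling, transgenic minus control on the log2 scale (points; red higher, blue lower, grey not called; black rings mark members; bars mark list medians). Called genes lie on both sides in the G protein and RGS list, 4 higher and 5 lower, whereas the ringed members all lie between -0.40 and 0.23.

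At the receptor level, Adra2c, an alpha2 receptor coupled to inhibitory G proteins, was the other measured adrenergic receptor, with a difference of -0.39 (SE 0.17, adjusted p = 0.198). Adra2c was dim, at a control mean of 5.14 beside 7.65 for Adra1b. Among 20 other receptors linked to cAMP in the heart, 2 rose and 3 fell. Ramp1, which joins the calcitonin receptor-like receptor to bind CGRP, rose by 0.79 on the log2 scale (limma adjusted p = 0.00169). Chrm2, the muscarinic M2 receptor through which the vagus slows the heart, fell by 0.37 (limma adjusted p = 0.0278). Leaving out control 1, control 2, transgenic 1 or transgenic 3 ended this call (adjusted p 0.0682 to 0.105). Ramp2, the partner that gives the same receptor affinity for adrenomedullin, fell by 0.39 and was lost without any array except transgenic 3 (0.0657 to 0.126). Pth1r, the parathyroid hormone receptor, rose by 0.37 and was lost without any single array (0.0619 to 0.114). Calcrl, the receptor that Ramp1 and Ramp2 join, was named after its values were seen, and it fell by 0.41 and was likewise lost without any single array (0.0515 to 0.141).

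Some endothelial, macrophage and mural cell markers were called in the same hearts. Of 12 endothelial markers 7 fell and 0 rose, and their summed log2 level was 13.67 to 13.77 in control and 13.45 to 13.55 in transgenic hearts. Of 12 macrophage markers 7 fell and 0 rose (10.78 to 10.95 against 10.15 to 10.36), and of 12 smooth muscle and pericyte markers 4 fell and 1 rose (13.93 to 14.06 against 13.46 to 13.61). Brighter genes weigh more in such a sum. The smooth muscle and pericyte list holds Rgs5, at a control mean of 12.14. Rgs5 is also a called gene of the cascade lists, so this sum is not independent of its fall. The mean log2 level of the smooth muscle and pericyte list overlapped, at 8.70 to 8.83 in control and 8.59 to 8.74 in transgenic hearts. Mean levels of the endothelial and macrophage lists did not overlap. None of the endothelial or smooth muscle markers lay in the dimmest 33.3% of genes, and 1 macrophage marker did. Their part in the falls of Calcrl, Ramp2 and other genes of these lists was not tested, and in whole hearts fewer cells of a type and less RNA per cell cannot be told apart. Of 11 autonomic neuron and Schwann cell markers 3 fell and 0 rose, at a level of 9.08 to 9.17 in control and 8.87 to 9.05 in transgenic hearts, with 5 in the dimmest 33.3%. Of 12 fibroblast markers 1 rose and 2 fell (13.55 to 13.69 against 13.50 to 13.59). None of the 7 adipocyte, 6 lymphocyte and 1 erythroid markers was called.

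The largest fall in the lists lay among G protein subunits and the RGS proteins that switch them off. Of 28 measured genes 4 rose and 5 fell. Rgs2, which shortens signalling through Gq, was at 9.96, 10.08 and 9.86 in control hearts and at 8.65, 8.30 and 8.96 in transgenic hearts. The groups were separated by nearly a whole log2 unit, and the mean fell by 1.33 with an SE of 0.16 (limma adjusted p = 0.00149). A second Rgs2 probe near the bottom of the scale had a difference of -0.14 (limma adjusted p = 0.376). Rgs4, which acts on both inhibitory and Gq subunits, was at 7.55, 7.20 and 6.99 in control hearts and at 6.04, 5.87 and 6.17 in transgenic hearts. It fell by 1.22 with an SE of 0.15 (limma adjusted p = 0.00164), again with no overlap.

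In the opposite direction, Gnao1, an alpha subunit of the inhibitory family, was at 7.71, 8.03 and 7.72 in control hearts and at 8.80, 8.82 and 8.68 in transgenic hearts. Gnb3, a beta subunit, was at 7.11, 6.87 and 6.87 in control hearts and at 7.90, 8.06 and 7.93 in transgenic hearts. Both were higher in every transgenic heart, Gnao1 by 0.94 (SE 0.11, limma adjusted p = 0.00143) and Gnb3 by 1.01 (SE 0.10, limma adjusted p = 0.00068). Gnas, the stimulatory alpha subunit through which beta receptors work, had a difference of -0.0052 (adjusted p = 0.981). The remaining 5 called genes of the list were named after their values were seen. Rgs5, a pericyte marker, fell by 0.65, and a second Rgs5 probe had -0.53 (limma adjusted p = 0.273), with -0.59 for the mean of both (limma adjusted p = 0.071). The subunits Gng12 and Gnb5 fell by 0.40 and 0.39, while Rgs12 rose by 0.57 and Gng2 by 0.44. The call of Gng12 was lost without control 1, transgenic 1 or transgenic 2 (adjusted p 0.0576 to 0.0682). That of Gnb5 was lost without control 2 or any transgenic array (0.067 to 0.0918), and that of Gng2 without transgenic 2 or 3 (0.0658 to 0.0737).

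**Figure D4:**
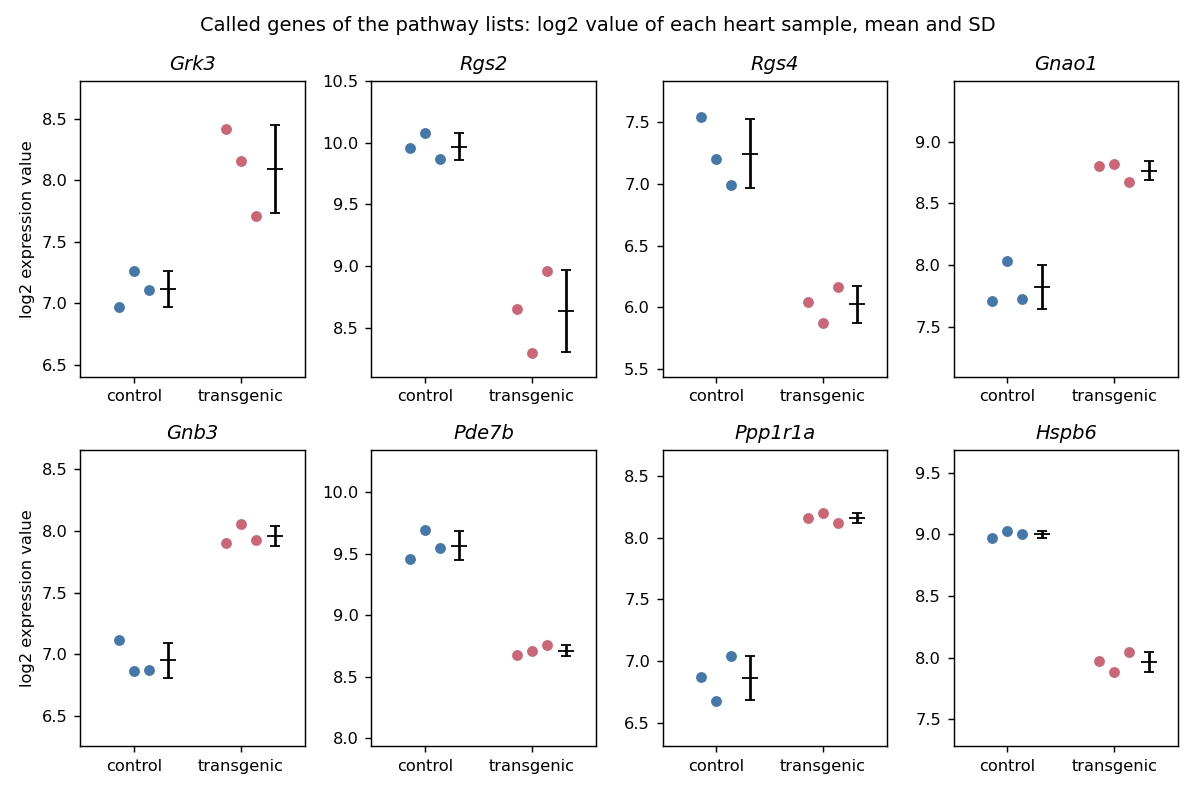
Deposited log2 value of 8 called genes of the pathway lists in each heart sample (points; 3 control, 3 transgenic), with group mean and SD as black bars; every vertical axis spans the same log2 width. Grk3, Gnao1, Gnb3 and Ppp1r1a are higher and Rgs2, Rgs4, Pde7b and Hspb6 lower in every transgenic heart, with no overlap.

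Among receptor kinases and arrestins, 1 of 7 measured genes was called. Grk3, which Gbeta-gamma subunits recruit to the membrane, was at 6.98, 7.27 and 7.11 in control hearts and at 8.42, 8.16 and 7.71 in transgenic hearts. It rose by 0.98 with an SE of 0.17 (limma adjusted p = 0.00811), whereas Grk5, in the same family, had -0.40 as given above. Grk2 was not analysed here. The arrestins Arrb1 and Arrb2 had 0.15 and -0.16 (adjusted p = 0.483 and 0.453).

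Of 9 measured adenylyl cyclases 1 fell and 0 rose, and all but Adcy6 had negative differences. These include the dim Adcy8 and Adcy10, at control means of 4.90 and 3.72. Adcy9, a broadly expressed cyclase, fell from 7.68 ± 0.088 to 7.24 ± 0.079 (SD, n = 3 each), by 0.44 (limma adjusted p = 0.0162), and its call was lost without transgenic 2 or 3 (adjusted p 0.0648 and 0.0625). Adcy7 and Adcy8 had differences of -0.27 and -0.30 (adjusted p = 0.167 and 0.210).

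Of 18 phosphodiesterases 3 fell and 0 rose, and the members Pde3a and Pde4d were not among them. Pde7b and Pde7a, which are specific for cAMP, fell by 0.85 (SE 0.092, limma adjusted p = 0.00102) and 0.70 (SE 0.082, limma adjusted p = 0.00148). Pde7b was at 9.46, 9.69 and 9.54 in control hearts and at 8.67, 8.71 and 8.76 in transgenic hearts. A second, dimmer Pde7a probe had 0.11, and with the probes averaged the Pde7a difference was -0.30 (limma adjusted p = 0.078). Pde2a, which cGMP stimulates, fell by 0.45 (SE 0.085, limma adjusted p = 0.0122). Pde8b had a difference of -0.41 (adjusted p = 0.0664).

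The kinase A list, which includes the uncalled Prkaca, held 1 called gene of 8. Prkar2a, a type II regulatory subunit that anchoring proteins bind, fell by 0.51 (SE 0.097, limma adjusted p = 0.0119), and the call was lost without transgenic 2 (0.0571). Pkia, an inhibitor of the catalytic subunit, had -0.47 (adjusted p = 0.0598), Prkar1a -0.14 (0.357) and Prkar1b -0.13 (0.355). Of 15 anchoring proteins 1 rose and 1 fell. Cmya5, a large muscle protein that binds type II regulatory subunits, fell by 1.16 with an SE of 0.088 (limma adjusted p = 0.000256). Akap11 rose by 0.33, a call lost without any single array (adjusted p 0.0633 to 0.126). Akap8 and Akap9 had 0.25 and 0.26 (adjusted p = 0.146 and 0.151).

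Other proteins that bind cAMP moved both ways, 2 higher and 1 lower of 6. Bves and Popdc3, membrane proteins of the Popeye family, rose by 0.50 (limma adjusted p = 0.00633) and 0.41 (limma adjusted p = 0.0246). Their relative Popdc2 had 0.19 (adjusted p = 0.191). The Popdc3 call was lost without any 1 transgenic array (adjusted p 0.0579 to 0.0916) and, at 0.37, with arrays centred on their medians (0.051). Hcn2, a pacemaker channel that cAMP opens, fell by 0.66, a call lost without any array except transgenic 3 (0.0629 to 0.106).

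The list of kinase A targets in contraction also held genes of their phosphatase control. Of its 19 genes 1 was higher and 1 lower, 10.5% called, near the 11.1% of all genes. Ppp1r1a, which inhibits protein phosphatase 1 once kinase A has phosphorylated it, was at 6.87, 6.68 and 7.04 in control hearts and at 8.16, 8.20 and 8.12 in transgenic hearts. It rose by 1.30 with an SE of 0.11 (limma adjusted p = 0.000309). Hspb6, a small heat shock protein that kinase A phosphorylates, lay between 8.97 and 9.03 in control hearts and at 7.97, 7.88 and 8.04 in transgenic hearts. It fell by 1.03 with an SE of 0.085 (limma adjusted p = 0.000309). These shifts were about as large as those of Rgs2 and Gnb3, with no overlap in either gene. Pln, the kinase A target that restrains calcium uptake, had -0.0074 (adjusted p = 0.969), and Ryr2, the calcium release channel, 0.18 (adjusted p = 0.327). Rrad, which holds back the L-type calcium channel, had -0.39 (adjusted p = 0.0528), and Kcnq1, a potassium channel, 0.32 (adjusted p = 0.0544).

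In the nucleus, 1 of 10 genes of the CREB family and its coactivators fell. That gene was Sik1, a kinase that CREB induces and that holds CREB coactivators in the cytoplasm, and it fell by 1.04 with an SE of 0.18 (limma adjusted p = 0.00719). The coactivators Crebbp, Ep300 and Crtc3 had 0.26, 0.17 and -0.16 (adjusted p from 0.106 to 0.310). On the alpha1 side, which Adra1b feeds, 1 of 13 genes was called. Prkd1, a kinase downstream of protein kinase C, rose by 1.09 with an SE of 0.15 (limma adjusted p = 0.00311). Itpr2, a receptor for inositol trisphosphate, had 0.51 (adjusted p = 0.0529), Plcb1 -0.31 (0.105) and Plce1 0.23 (0.125). Of 4 CaM kinase II genes Camk2a rose by 0.38, a call lost without any array except control 3 (adjusted p 0.0596 to 0.0891). Camk2d, the main cardiac form, had 0.03 (adjusted p = 0.878), a sign that turned to -0.0072 with arrays centred on their medians. Camk2g and Camk2b had 0.31 and -0.02 (adjusted p = 0.101 and 0.913).

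Of 12 genes of catecholamine synthesis, uptake and breakdown 1 rose and 1 fell. Ddc, the decarboxylase that makes dopamine, rose by 1.18 with an SE of 0.099 (limma adjusted p = 0.000331). Maob, a monoamine oxidase, fell by 0.80 with an SE of 0.091 (limma adjusted p = 0.00126), while Maoa had 0.48 (adjusted p = 0.0553). Slc18a2, which loads monoamines into vesicles, had -0.36 (adjusted p = 0.188). Th and Dbh, enzymes of noradrenergic neurons named after their values were seen, had differences of -0.02 and 0.07 (adjusted p = 0.936 and 0.726). Both were dim, at control means of 4.98 and 4.75.

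Promoters of the members were searched for the cAMP response element, through which CREB acts, as TGACGTCA and as its core CGTCA on both strands, the full site containing the core. RefSeq windows on GRCm38.p6, 250 bases before to 50 bases after a start, were at hand for 5 of the 7 measured members, with 7 windows. None held TGACGTCA, which 1.79% of all 32851 windows hold, and 1 window held CGTCA, which 20.8% of all windows hold. That window is 1 of 2 promoter windows of Prkaca, at chr8:83972728-83973027, plus strand, with 2 copies of the core. The other Prkaca window lacks the core. The Prkaca window with the core is shown with windows of Rgs2 (chr1:144004100-144004399, minus strand) and Rgs4 (chr1:169747593-169747892, minus strand). Rgs2 and Rgs4 fell the most in the lists and were picked for display after their values were seen. The first listed window of each is shown, and it holds 2 copies. Windows of other called genes were not looked at singly, and the share of all windows with 2 copies was not counted. Any link between these copies and the falls was not tested. Capitals mark CGTCA or its reverse complement.
Prkaca: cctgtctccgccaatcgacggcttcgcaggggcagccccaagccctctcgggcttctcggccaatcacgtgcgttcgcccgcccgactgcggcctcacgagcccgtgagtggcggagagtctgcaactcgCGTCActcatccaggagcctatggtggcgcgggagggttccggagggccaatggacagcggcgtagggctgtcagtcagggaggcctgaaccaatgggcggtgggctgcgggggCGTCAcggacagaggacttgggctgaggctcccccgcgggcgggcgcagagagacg
Rgs2: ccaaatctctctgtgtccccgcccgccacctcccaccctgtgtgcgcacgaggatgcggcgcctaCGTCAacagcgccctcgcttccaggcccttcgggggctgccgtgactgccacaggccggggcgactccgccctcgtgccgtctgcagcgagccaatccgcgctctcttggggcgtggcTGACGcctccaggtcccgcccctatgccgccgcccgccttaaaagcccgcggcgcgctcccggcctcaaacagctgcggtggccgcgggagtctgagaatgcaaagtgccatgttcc
Rgs4: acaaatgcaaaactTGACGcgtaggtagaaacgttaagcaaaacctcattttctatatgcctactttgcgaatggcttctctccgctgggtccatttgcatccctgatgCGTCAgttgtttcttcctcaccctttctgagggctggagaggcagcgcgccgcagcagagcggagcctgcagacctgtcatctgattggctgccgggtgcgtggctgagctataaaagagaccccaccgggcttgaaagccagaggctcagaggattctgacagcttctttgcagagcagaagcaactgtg
The copies in Prkaca start 120 and 6 bases before the start, those in Rgs2 185 and 67 bases before it, and those in Rgs4 236 and 141 bases before it. A match describes these letters and no binding was measured here.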

How the data were processed

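The authors deposited log2 expression values for every probe on every array; oligo, RMA and limma appear in the submitters' processing notes, with no version. As the labels' protocols state, total RNA (100 ng) was reverse transcribed from a poly(T) primer, amplified and labelled with biotin. Background correction and filters are not stated there, and no detection calls were used. The number of arrays limits the precision.

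Of 41345 probes, 23521 had 1 gene symbol in the platform annotation, 1814 several and 16010 none. The brightest probe of each gene was used. The comparison used lmFit and eBayes of limma 3.58.1 under R 4.3.3, with no covariates, adjusted over all 22180 genes at a threshold of 0.05. Within-array contrasts used an exact permutation test. Of 4 planned, the 2 with Adrb1 or Adra1a were not analysed here.

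Named genes were the members, up to 4 genes of each list by smallest p, and Chrm2, Gnas, Prkar1a, Pln and Ryr2. Other genes on that rule were not analysed here. The cluster genes and Nkx2-5 were added as context. The rule also asked for genes patterned like each called member, and with 0 members called it named none. The members, lists and tests were chosen with earlier results of these data known. On simulated data for this comparison (22180 genes, 50 changed per size) the share found was 0% for 1.25-fold changes, 50% for 1.5-fold, 78% for 2-fold and 100% for 4-fold, with 7 false calls. Fewer genes were changed there than the real data called, so the adjusted threshold was stricter and the shares can be too low for the real data.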

Additional observations from a re-analysis of the deposited data

How the results depend on the processing

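The alternatives took the mean over the probes of each gene, tested probes singly, left out the dimmest 33.3% of genes, normalized by quantiles again, centred arrays on their medians, used an intensity trend with robust variance, array weights, a block for the replicate number, a sex term taken from Xist and Y-linked genes, a minimum fold of 1.5, or left out each array in turn. Read from the brightest probe, 6 of the 7 members kept their direction under all of them, and the exception was Pde4d, at 0.020 without transgenic 1. Prkaca, the member with a second probe, had 0.060 at that probe (adjusted p = 0.775) and -0.066 with both averaged (adjusted p = 0.677), beside -0.19. Members passed the test in 4 settings: Adra1b (-0.29) with quantile normalization, 1 member in all; Adcy6 (0.23) and Prkaca (-0.19) with trend and robust variance, 2 members; Grk5 (-0.49) with array weights, 1 member; and Grk5 (-0.60) without control 3, 1 member. Leaving out 1 array gave -0.25 to -0.20 for Adra1b, -0.19 to -0.09 for Adcy5, 0.18 to 0.26 for Adcy6, -0.60 to -0.27 for Grk5, -0.31 to -0.17 for Pde3a, -0.101 to 0.020 for Pde4d and -0.22 to -0.15 for Prkaca, and 0 to 1 members called. It gave 20 to 31 called genes of the lists and 1171 to 2249 called genes of all, beside 32 and 2465. A minimum fold of 1.5 left 3 and 90, and no member. Repeated quantile normalization and centring moved the split of all calls from 1187 higher and 1278 lower to 1023 and 1789, and to 894 and 1453, while the median of all genes moved by less than 0.1; the cause was not tested. Among named genes of the lists, the sign turned for Camk2d (-0.0072 with centring, and -0.0075 to 0.075 when 1 array was left out), Camk2b (-0.071 to 0.048), Gnas (0.012 with array weights, -0.039 to 0.050), Pln (-0.031 to 0.0067) and Th (0.0073 with array weights, 0.0037 with the sex term, -0.125 to 0.080), and 0 of these was called in any setting. Same-numbered samples of the groups did not deviate together (correlations of 0.0163, -0.130 and 0.0138, and 0 of 6 arrays correlated best with its own number). With 3 samples per group this check cannot exclude a weak pairing by number. With the replicate block, 0 members, 28 genes of the lists and 1996 of all genes were called, and the calls of Akap11, Camk2a, Chrm2, Pth1r, Gnb5 and Calcrl were lost (adjusted p 0.0519 to 0.074). The sex term ended those of Akap11, Popdc3, Camk2a, Chrm2, Pth1r and Ramp2 (0.0503 to 0.0804), centring those of Akap11, Popdc3 and Pth1r (0.051 to 0.0817), and repeated quantile normalization that of Pth1r (0.0775). The shift of Adcy5 minus Adcy6 ran from -0.40 to -0.32 and that of Pde3a minus Pde4d from -0.25 to -0.13 when 1 array was left out. Some named genes not called in the main fit passed in some other settings (limma adjusted p). Pkia passed at 0.022 to 0.0462, Pde8b at 0.029 to 0.0462 and Rrad at 0.0146 to 0.0454. Kcnq1 passed at 0.0182 to 0.0326, Maoa at 0.0256 to 0.0426 and Itpr2 at 0.0199 to 0.0362. With trend and robust variance, Popdc2 (0.0289), Crebbp (0.036) and Camk2g (0.0432) passed. The simulation changed fewer genes than the real data called, which made its adjusted threshold stricter. In it 0% of 1.25-fold changes were recovered, while in the real data Akap11 was called at 1.26-fold. The simulated shares therefore do not tell how often a change of a member's size would be called in these data. Of the 7 members, 6 differed by less than 1.25-fold.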
